A study of Mus musculus with 6 samples.

Results

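A set of 10 genes of the JAK-STAT3 pathway was examined in xenograft tumours after a dose of an ALK inhibitor: the signal transducer STAT3, the inhibitors SOCS3, SOCS2 and CISH, the kinase PIM1, the receptors IL6ST, OSMR and LIFR, the cytokine LIF, and the enzyme gene NNMT. They were chosen by gene symbol, as all probe sets annotated to 1 of these symbols and to no other gene. This gave 34 of the 54675 probe sets on the array, for 10 of the 19775 genes that have such a probe set. Tumours of NCI-H2228, an EML4-ALK fusion-bearing human lung adenocarcinoma line, were grown subcutaneously in SCID mice. A group of 2 arrays came from tumours of mice given 20 mg/kg of CH5424802 (later named alectinib) by mouth, another group of 2 from mice given 4 mg/kg, and the last 2 from mice given vehicle alone, all collected 6 h after the dose. All 3 groups thus share the cell line, the SCID host and the time of collection. Whether both arrays of a group are from different mice is not recorded in the labels, and the p-values below reflect array-to-array spread alone, possibly a technical one.

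Cytokines of the IL-6 family, among them IL6, LIF and oncostatin M, bind receptor complexes that share the chain gp130, encoded by IL6ST. LIFR and OSMR are partner chains of gp130, and JAK kinases bound to the chains phosphorylate STAT3, which then enters the nucleus and turns on its targets. SOCS3, CISH and PIM1 are induced by STAT proteins, and SOCS3 binds gp130 and JAKs and shuts the signal down. ALK fusion proteins are also known to activate STAT3. Phosphorylation was not measured here, and all values below are transcript levels.

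The labels give the mouse as organism, while the array holds probes for human transcripts. All 10 lung adenocarcinoma markers were measured above the level filter, NKX2-1 and NAPSA among them. Of the 10, 1 fell at 20 mg/kg, KRT18 (log2 -1.54, adjusted p = 0.0416 by limma), where 2.07% of all genes fell. Both 20 mg/kg arrays lay above both vehicle arrays in 2 of the 10, EPCAM (0.50) and CDH1 (0.23), and below in 5. These were KRT18, KRT7 (-0.92), KRT8 (-0.88), SFTPB (-0.45) and KRT19 (-0.34). Of all genes 24.5% lay above and 25.9% below. The summed intensity of the 10 ran from 90270 to 97258 at 20 mg/kg, from 106513 to 108599 at 4 mg/kg and from 100756 to 112246 with vehicle. Both 20 mg/kg sums thus lay below those of all other arrays. Among host cell markers, 4 of 6 leukocyte genes, 3 of 5 endothelial genes and 3 of 8 fibroblast genes lay under a mean log2 value of 4, with TYROBP, VWF and PDGFRB at the floor on every array. The fibroblast list also held bright probe sets, with mean log2 values of 15.04 for COL1A1, 10.92 for COL1A2, 10.27 for COL3A1 and 8.34 for POSTN. Their summed intensities overlapped between vehicle and both doses in each of these 3 lists except for leukocytes, where the sums of 105.4 and 104.1 at 20 mg/kg and of 105.4 on both 4 mg/kg arrays lay under the 105.7 and 108.0 of vehicle. How mouse transcripts read on this array was not tested, and in tumour tissue fewer cells of a type and less RNA per cell cannot be told apart. The array's 18S rRNA control had intensities of 573 and 637 in the 20 mg/kg group, of 489 and 374 in the 4 mg/kg group, and of 1713 and 4058 in the vehicle group. The vehicle arrays stand apart in this control, vehicle replicate 2 most of all. For the brightest probe sets of LIFR, IL6ST, SOCS3, NNMT and PIM1, values without that array stand beside the differences at 20 mg/kg. For other probe sets and for 4 mg/kg they are given only in part. The ratios of 3′ to 5′ control signal for ACTB lay between 0.988 and 1.07 on the 6 arrays.

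Levels are given as log2 of the deposited intensity, for which the floor of the data is 2.19. Of the 34 probe sets, 22 had a mean of at least 4 and were tested, and 12 lay under it, 6 of them at the floor on all 6 arrays. LIF was the gene without a tested probe set. Its only probe set, 205266_at, read 2.35 and 2.23 with vehicle and 2.19 on all 4 treated arrays. The transcript of this ligand was thus at or next to the floor in every array, and no fold change is given for it. For the other 9 genes the brightest probe set stands for the gene in a limma model over all 10271 genes that passed the level filter, and a second limma model over all 19830 probe sets that passed lets the probe sets of a gene be compared. P-values were adjusted over all genes, or all probe sets, by the Benjamini-Hochberg method, and a gene is called when its adjusted p is under 0.05.

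At 20 mg/kg against vehicle, 1 of the 9 tested genes was called, NNMT, which was lower. Among all genes tested, 4.33% were called in this comparison, 2.26% as higher and 2.07% as lower. NNMT, LIFR, SOCS3 and IL6ST were the 4 with an unadjusted p under 0.05, as 24.2% of all genes had, and the first 3 had absolute log2 differences above 2. At 4 mg/kg against vehicle none of the 9 was called, where 0.0584% of all genes were, and 4 had an unadjusted p under 0.05, where 17% of all genes had. Between 20 and 4 mg/kg none was called, where 0.37% of all genes were, and 1 had an unadjusted p under 0.05, where 13.4% of all genes had. The median log2 difference of the 9 genes was -0.0035 at 20 mg/kg, -0.016 at 4 mg/kg and -0.050 between the doses, beside medians of 0.00, 0.00 and -0.0058 over all genes tested. Both comparisons with vehicle use the same vehicle arrays.

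Single arrays matter for these counts. Without vehicle replicate 2 none of the 9 genes was called at 20 mg/kg, and without vehicle replicate 1 the called genes were LIFR and IL6ST, both higher, with NNMT at an adjusted p of 0.0577 by limma. Without any 1 of the other 4 arrays none was called. In the probe set model 1 of the 22 tested probe sets was called at 20 mg/kg, 202237_at of NNMT, where 2.63% of all probe sets were called, and 10 had an unadjusted p under 0.05, where 21.1% of all had. The 20 mg/kg arrays lay entirely above or entirely below the vehicle arrays in 16 of the 22, 8 above and 8 below, and 47.3% of all probe sets had groups that did not overlap. None of the 22 was called at 4 mg/kg against vehicle, where 0.00504% of all probe sets were. Of the 22, 6 had an unadjusted p under 0.05 there (14.2% of all probe sets) and 10 had groups that did not overlap (34.5% of all). None was called between 20 and 4 mg/kg, where 0.212% of all probe sets were. Of the 22, 2 had an unadjusted p under 0.05 there (11.9% of all) and 12 had groups that did not overlap (33.7% of all). Among the 22 is NNMT 202238_s_at, which passed the level filter only through its vehicle arrays. It is in both counts of low unadjusted p against vehicle and in all counts of groups without overlap, and gives them no support.

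Among the receptors, LIFR had the largest difference. LIFR is the chain that joins gp130 in the receptors for LIF and oncostatin M. Its brightest probe set, 225575_at, read 7.80 and 6.42 with vehicle, 8.77 and 9.10 with 4 mg/kg, and 10.20 on both arrays with 20 mg/kg. The groups did not overlap and stood in the order of dose, and vehicle replicate 2 was the lowest array. The mean was 8.53-fold higher at 20 mg/kg than with vehicle (log2 3.09, SE 0.52, adjusted p = 0.0706 by limma), which did not pass. The difference was 2.40 without vehicle replicate 2 (adjusted p = 0.0709 by limma) and 3.78 without vehicle replicate 1, which passed (adjusted p = 0.0257). The log2 difference of 4 mg/kg from vehicle was 1.82 (SE 0.52, adjusted p = 0.234), or 1.13 without vehicle replicate 2. Without vehicle replicate 1 it was 2.52 and passed (adjusted p = 0.0448 by limma).

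The other LIFR probe sets give this difference smaller sizes. Probe set 225571_at read 6.83 and 5.65 with vehicle, 7.70 and 7.90 with 4 mg/kg, and 8.94 and 8.92 with 20 mg/kg, a log2 difference of 2.69 at the higher dose, or 2.10 without vehicle replicate 2. Probe set 205876_at read 7.31 and 6.19 with vehicle, 7.50 and 7.54 with 4 mg/kg, and 8.04 on both arrays with 20 mg/kg, a difference of 1.29, or 0.73 without vehicle replicate 2. At 4 mg/kg those 2 probe sets were at 1.56 and 0.77, or 0.98 and 0.21 without it. In these 3 probe sets the arrays followed the dose without overlap and vehicle replicate 2 was the lowest array. Probe set 227771_at read 7.31 and 7.30 with vehicle, 6.85 and 7.31 with 4 mg/kg, and 8.09 and 8.19 with 20 mg/kg. Here the vehicle arrays lay close together, the 4 mg/kg arrays did not lie above them, and only the 20 mg/kg arrays stood higher, by 0.84 against vehicle and by 1.06 against 4 mg/kg. All 4 thus had both 20 mg/kg arrays above both vehicle arrays, with adjusted p-values between 0.0841 and 0.212 in the limma fit of probe sets. The fifth LIFR probe set, 229185_at, lay at 3.15 to 3.32 on the 6 arrays and was not tested.

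IL6ST encodes gp130, the signalling chain of the whole family. Its brightest probe set, 212195_at, read 12.96 and 12.60 with vehicle, 13.19 and 13.31 with 4 mg/kg, and 13.42 and 13.43 with 20 mg/kg. The arrays followed the dose without overlap, as in LIFR, and vehicle replicate 2 was again the lowest. The difference at 20 mg/kg was 1.56-fold (log2 0.64, SE 0.14, adjusted p = 0.102 by limma), 0.46 without vehicle replicate 2, and 0.82 without vehicle replicate 1, which passed (adjusted p = 0.041). The lower dose gave 0.47 (adjusted p = 0.245), or 0.29 without vehicle replicate 2.

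The probe sets of IL6ST did not all show this pattern. Probe set 212196_at read 10.93 and 10.53 with vehicle, 10.88 and 11.28 with 4 mg/kg, and 11.51 and 11.42 with 20 mg/kg, a difference of 0.73 at the higher dose (adjusted p = 0.188 in the limma fit of probe sets). The 3 tested probe sets whose names end in _s_at, a suffix for probes that match several transcripts, had smaller differences at 20 mg/kg: 0.27 for 204864_s_at, 0.15 for 211000_s_at and -0.08 for 204863_s_at. Without vehicle replicate 2 that of 211000_s_at was -0.06. Those 3 were, at 4 mg/kg, at -0.60, -0.15 and -0.20, on the other side of 0 from the brightest probe set. In 204864_s_at the 4 mg/kg arrays, at 7.46 and 8.43, lay below all other arrays. The mean of all 7 probe sets, 2 of which were at the floor throughout, was 0.24 at 20 mg/kg and -0.02 at 4 mg/kg. The difference between probe sets was not tested. An exact permutation test of 2 arrays against 2 cannot give a p under 0.333.

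OSMR, the partner of gp130 in the main oncostatin M receptor, had its 20 mg/kg arrays on the lower side in both tested probe sets. Probe set 226621_at read 12.64 and 12.45 with vehicle, 12.41 and 12.49 with 4 mg/kg, and 12.36 and 12.12 with 20 mg/kg. The 20 mg/kg arrays lay below the rest, and the 4 mg/kg arrays overlapped with vehicle. The log2 difference was -0.30 at 20 mg/kg (SE 0.12, adjusted p = 0.243 by limma) and -0.09 at 4 mg/kg (adjusted p = 0.718). At 4 mg/kg it was 0.0033 without vehicle replicate 1 and -0.19 without vehicle replicate 2. Probe set 205729_at read 12.41 and 12.20 with vehicle, 11.31 and 12.02 with 4 mg/kg, and 11.67 and 11.42 with 20 mg/kg. All 4 treated arrays lay below both vehicle arrays there, by 0.76 on average at 20 mg/kg and 0.64 at 4 mg/kg, and neither difference passed (adjusted p = 0.269 and 0.468 in the limma fit of probe sets). The third OSMR probe set was at the floor on every array.

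**Figure D1:**
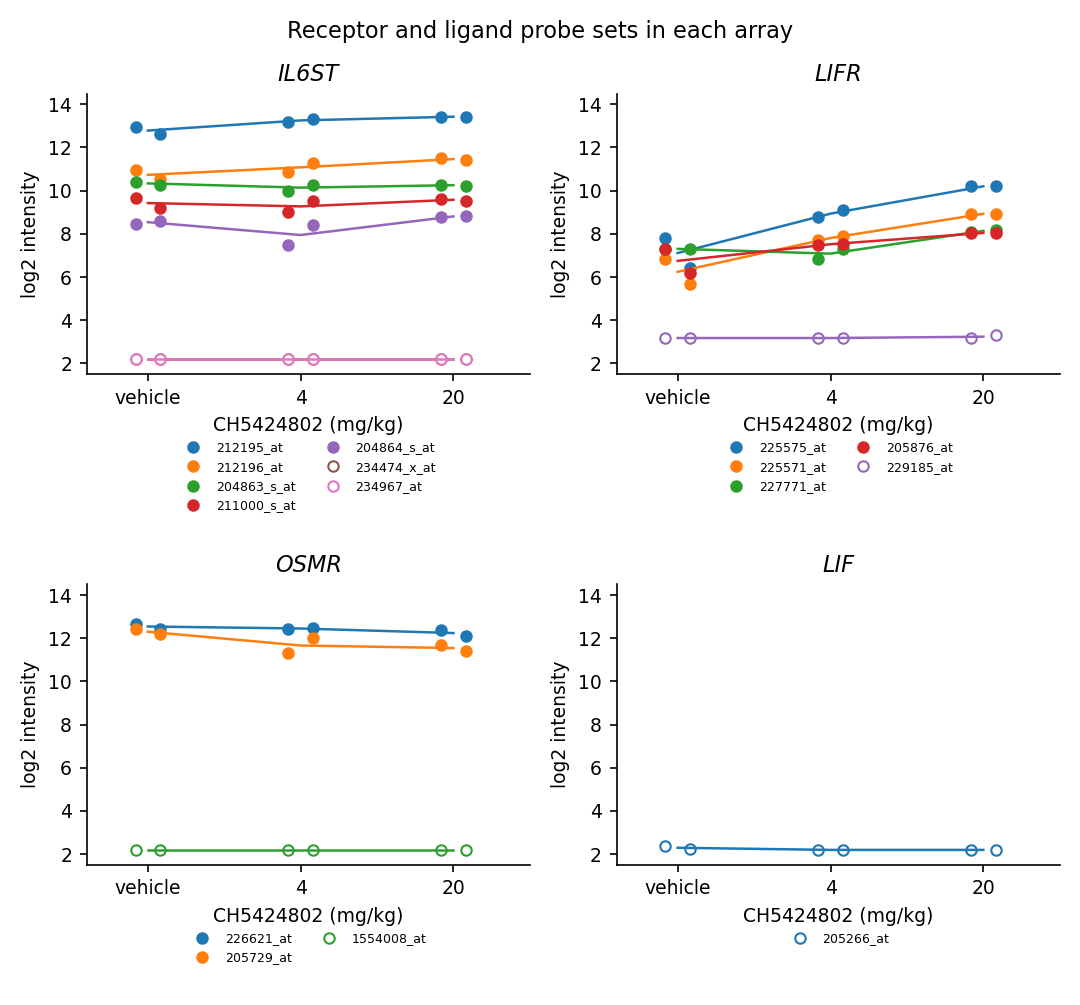
Log2 intensity (vertical axis) of every probe set of IL6ST, LIFR, OSMR and LIF against dose (horizontal axis, mg/kg of CH5424802, with vehicle at the left). Each point is 1 array, lines join the group means, colours mark probe sets, and open points are probe sets with a mean under 4, which were not tested. LIFR 225575_at stands at 10.20 on both 20 mg/kg arrays and at 7.80 and 6.42 with vehicle, while LIF lies next to the floor of 2.19.

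STAT3 itself has 4 tested probe sets, and none was called. The brightest, 208991_at, read 12.98 and 12.93 with vehicle, 12.74 and 13.02 with 4 mg/kg, and 12.75 and 12.72 with 20 mg/kg. The 20 mg/kg arrays were just below the vehicle arrays, by 0.22 (SE 0.11, adjusted p = 0.335 by limma), and the 4 mg/kg arrays spanned them. Probe set 225289_at read 10.39 and 10.73 with vehicle, 10.13 and 10.40 with 4 mg/kg, and 9.95 and 10.12 with 20 mg/kg. Probe set 208992_s_at read 10.38 and 10.67 with vehicle, 9.86 and 10.42 with 4 mg/kg, and 10.004 and 9.86 with 20 mg/kg. In both, the 20 mg/kg arrays lay below vehicle, with differences of -0.52 and -0.60 (adjusted p = 0.216 and 0.288 in the limma fit of probe sets), or -0.36 and -0.45 without vehicle replicate 2. Probe set 243213_at, dim at 4.21 to 4.71, lay on the other side, with a difference of 0.11, or 0.0056 without vehicle replicate 2.

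SOCS3 is the feedback inhibitor that binds gp130 and its JAKs, and its probe sets disagree in size. Probe set 227697_at read 9.08 and 9.93 with vehicle, 7.20 and 8.08 with 4 mg/kg, and 7.01 and 6.69 with 20 mg/kg. The arrays stood in the reverse order of dose without overlap, and vehicle replicate 2 was the highest. The mean was 6.31-fold lower at 20 mg/kg than with vehicle (log2 -2.66, SE 0.46, adjusted p = 0.0748 by limma), which did not pass. It was -2.23 without vehicle replicate 2 (adjusted p = 0.206 by limma) and -3.08 without vehicle replicate 1 (adjusted p = 0.0874). The difference at 4 mg/kg was -1.86 (adjusted p = 0.21), or -1.44 without vehicle replicate 2.

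Probe set 206360_s_at of SOCS3 does not show that difference. It read 7.08 and 6.87 with vehicle, 6.87 on both arrays with 4 mg/kg, and 6.43 and 6.87 with 20 mg/kg. Of the 6 arrays 4 thus held the same value of 6.87, and at least 1 array of every group was among them. Its log2 difference was -0.32 at 20 mg/kg (SE 0.18) and -0.11 at 4 mg/kg (adjusted p = 0.428 and 0.817 in the limma fit of probe sets). The gap between the 2 probe sets in this difference, -2.66 against -0.32, was not tested. The other SOCS3 probe sets, 206359_at and 214105_at, were at the floor on 5 and 6 of the 6 arrays.

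SOCS2 and CISH, inhibitors of the same family that are best known as STAT5 targets, showed almost no difference between arrays. SOCS2 probe set 203373_at read 5.40 on 5 arrays and 5.50 on 4 mg/kg replicate 1. CISH probe set 221223_x_at read 4.70 on all 6 arrays. Their other probe sets lay under the level filter, between 2.22 and 2.69 for SOCS2 and between 2.19 and 3.78 for CISH. Values equal within 1e-06 on the log2 scale, such as these, arise in 32.3% of tested genes for the 2 arrays of at least 1 group, and 531 genes have them in all 3 groups, so an equal value at a low level does not show an equal transcript amount.

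PIM1, a serine/threonine kinase that STAT3 and STAT5 induce, has 1 probe set, 209193_at. It read 8.17 and 8.47 with vehicle, 8.30 on both arrays with 4 mg/kg, and 8.26 and 8.38 with 20 mg/kg. Both dose groups lay inside the span of the vehicle arrays. The log2 difference at 20 mg/kg was -0.0035 with an SE of 0.12 (adjusted p = 1 by limma), and it was -0.15 without vehicle replicate 1 and 0.15 without vehicle replicate 2.

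NNMT, nicotinamide N-methyltransferase, methylates nicotinamide and is known as a STAT3-responsive gene in several tumours. Probe set 202237_at read 11.34 and 11.77 with vehicle, 10.16 and 9.97 with 4 mg/kg, and 9.46 and 8.94 with 20 mg/kg. The groups stood in the reverse order of dose without overlap. NNMT fell 5.13-fold at 20 mg/kg (log2 -2.36, SE 0.26, adjusted p = 0.0386 by limma), lower in both 20 mg/kg arrays than in both vehicle arrays. The difference at 4 mg/kg was -1.49 (SE 0.26, adjusted p = 0.166), which did not pass, and between the doses it was -0.86 (adjusted p = 0.301). The call at 20 mg/kg was lost when any 1 of the 6 arrays was left out, with log2 values from -2.62 to -2.10 and adjusted p-values from 0.0577 to 0.128 by limma. Without vehicle replicate 2 it was -2.14.

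A second NNMT probe set, 202238_s_at, lay at a dim level and also read lower in the treated arrays. Its mean of 4.27 passed the level filter of 4 only through the vehicle arrays, so it gives no separate support. It read 5.18 and 6.36 with vehicle, 3.68 on both arrays with 4 mg/kg, and 3.43 and 3.30 with 20 mg/kg. The log2 difference was -2.41 at 20 mg/kg (SE 0.44, adjusted p = 0.0984 in the limma fit of probe sets) and -2.09 at 4 mg/kg, and neither passed. Without vehicle replicate 2 it was -1.82 at 20 mg/kg and -1.50 at 4 mg/kg. No fold is given, since the treated arrays lay near the floor, where differences are understated. The third NNMT probe set was at the floor on every array.

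**Figure D2:**
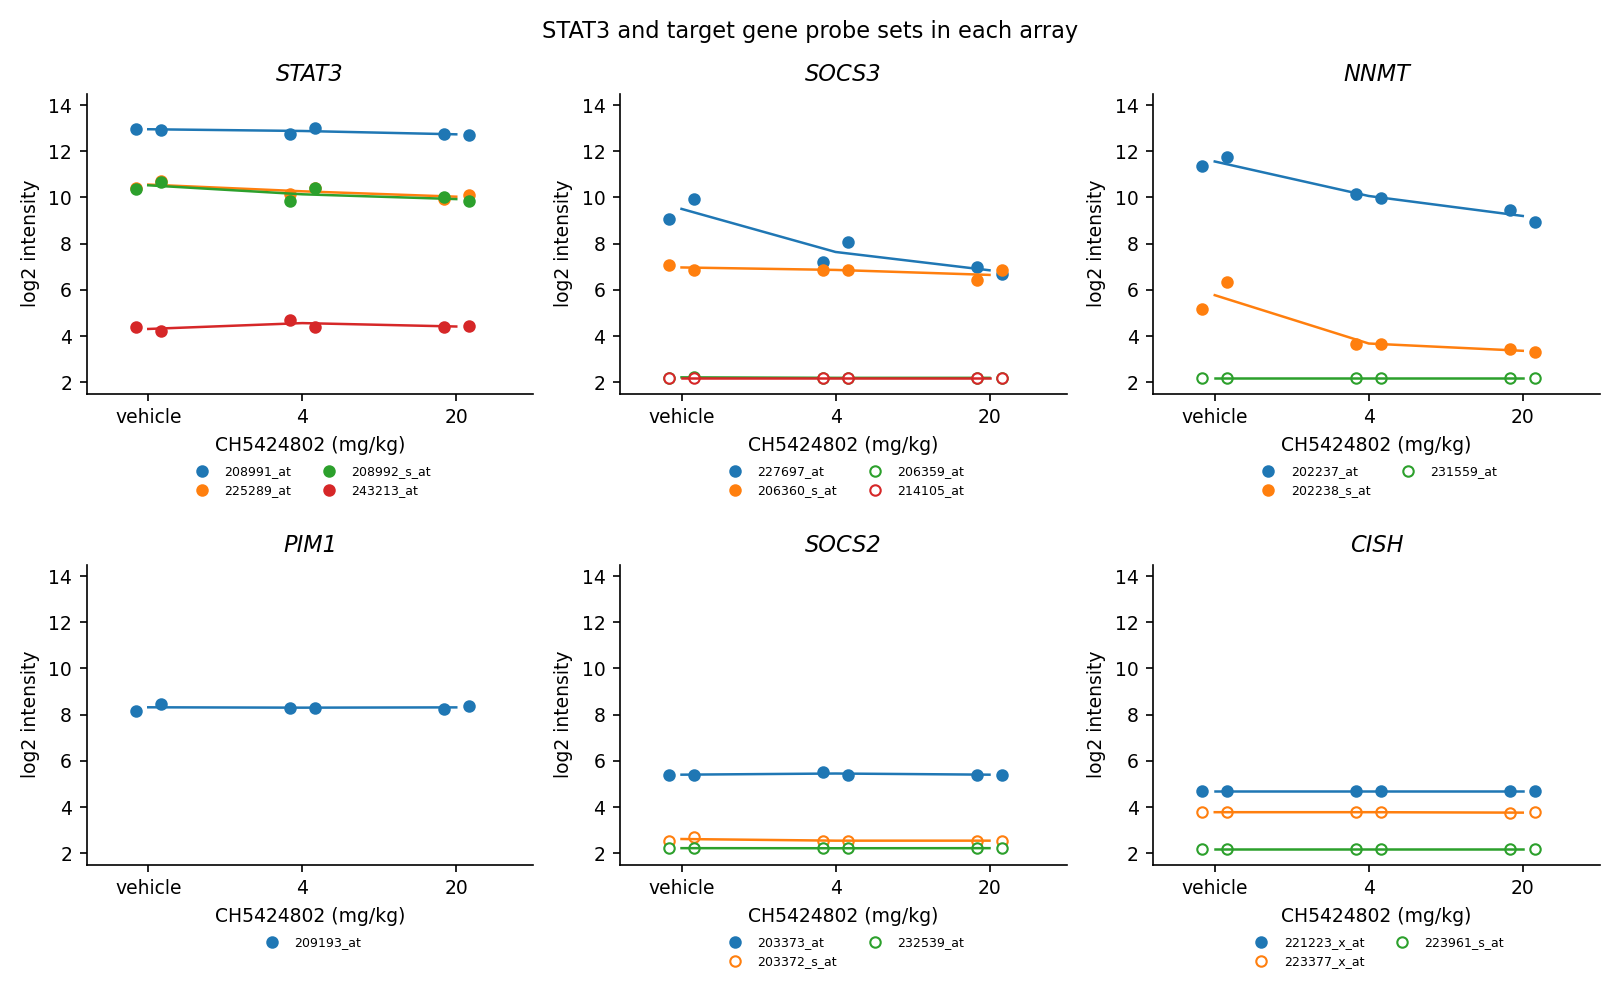
Log2 intensity (vertical axis) of every probe set of STAT3, SOCS3, NNMT, PIM1, SOCS2 and CISH against dose (horizontal axis, mg/kg of CH5424802, with vehicle at the left), drawn as for the receptors. NNMT 202237_at and SOCS3 227697_at step down with dose, SOCS3 227697_at standing at 7.01 and 6.69 at 20 mg/kg, while SOCS3 206360_s_at, PIM1, SOCS2 and CISH stay near 1 level.

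Set side by side, the doses order the arrays of some members and not of others. By their brightest probe sets the arrays of LIFR and IL6ST were graded upward with dose and those of SOCS3 and NNMT downward, 2 of the 9 genes each way. Among all genes tested, 4.61% were graded upward and 5.24% downward without overlap. Among the 22 probe sets 4 were graded upward, 3 of LIFR and 1 of IL6ST, and 3 downward, 2 of NNMT and 1 of SOCS3, where 4.09% and 4.68% of all probe sets were. The dimmer of the 2 NNMT probe sets, 202238_s_at, passed the level filter only through its vehicle arrays. The members were chosen with earlier results of these data known, so these shares are a description. No difference between 20 and 4 mg/kg passed for any member. By adjusted p the closest was NNMT among the brightest probe sets (0.301 by limma) and LIFR 227771_at among the 22 (0.173 in the limma fit of probe sets).

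**Figure D3:**
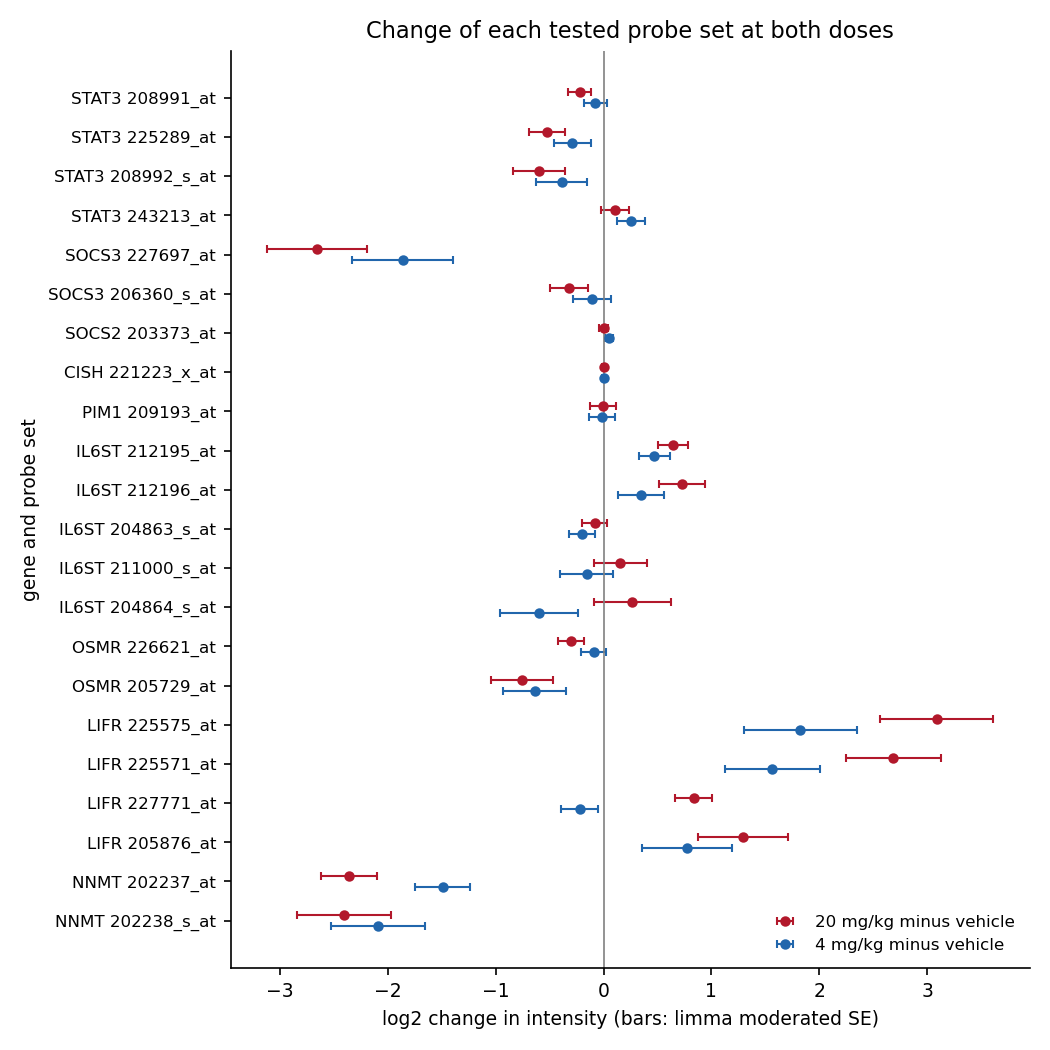
Log2 change in intensity (horizontal axis) for each of the 22 tested probe sets (rows), with 20 mg/kg minus vehicle in red and 4 mg/kg minus vehicle in blue. Bars are limma's moderated SE. LIFR 225575_at and 225571_at lie furthest right, at 3.09 and 2.69 at the higher dose, and SOCS3 227697_at and the NNMT probe sets furthest left, while the remaining SOCS3 probe set sits at -0.32.

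Of the pathway's other genes, 90 in 7 lists were looked up and 66 were tested. At 20 mg/kg against vehicle 11 of the 66 fell and none rose, where 2.07% of all genes fell and 2.26% rose. Limma called none of the 66 at 4 mg/kg or between the doses. An unadjusted p under 0.05 was found for 25 of the 66 at 20 mg/kg against vehicle (24.2% of all genes). The same held for 17 of the 66 at 4 mg/kg (17% of all genes) and 13 of the 66 between the doses (13.4% of all genes). The median log2 difference of the 66 was -0.06 at 20 mg/kg and -0.11 at 4 mg/kg, beside 0.00 over all genes tested in each case. The lists were chosen with earlier results known.

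Among 8 cytokines that signal through gp130, IL6 was the only 1 tested. IL6 read 7.04 and 6.60 with vehicle, 5.92 and 5.58 with 4 mg/kg, and 3.74 on both arrays with 20 mg/kg. It fell at 20 mg/kg (log2 -3.08, SE 0.20, adjusted p = 0.021 by limma) and was at -1.07 at 4 mg/kg (adjusted p = 0.171). Both 20 mg/kg arrays held the same value, under the level cutoff of 4. The size of the fall and its spread may both be understated. The call was lost when any 1 array other than vehicle replicate 1 was left out, with adjusted p-values up to 0.118. IL11, OSM, CNTF, CTF1 and IL27 were at the floor on all 6 arrays, as LIF nearly was, and CLCF1 and IL31 were not analysed here.

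Of the receptor chains that pair with gp130, 3 of 6 were tested and none was called. IL6R, the chain that binds IL6, had the largest difference: 205945_at read 7.78 and 8.57 with vehicle, 8.60 and 8.93 with 4 mg/kg, and 10.14 and 10.16 with 20 mg/kg. Both 20 mg/kg arrays stood above all others, by 1.97 against vehicle (SE 0.31, adjusted p = 0.0639 by limma). Here vehicle replicate 1, not replicate 2, was the lowest array, and the difference was 2.37 without vehicle replicate 2. A second IL6R probe set, 226333_at, gave 2.13.

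None of the 7 tested JAK kinases and other STATs was called, and the largest difference at 20 mg/kg was in JAK1, the JAK that gp130 chiefly uses, at 0.38 (adjusted p = 0.504 by limma). At 4 mg/kg JAK1 was at -0.03, and at 0.34 without 4 mg/kg replicate 1. None of 13 other inhibitors was called. PTPN11, the phosphatase SHP2, was at 1.34 at 20 mg/kg by 212610_at (adjusted p = 0.156 by limma), while its next probe sets, 209895_at and 209896_s_at, were at -0.23 and -0.72, so its direction depends on the probe set. PIM3, the other PIM kinase tested, was at 0.17 (adjusted p = 0.319 by limma). The median difference at 20 mg/kg was 0.02 for the JAK and STAT list and 0.05 for the inhibitors, beside 0.00 over all genes.

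Among 14 tested receptors that use JAKs outside the gp130 family, 2 fell at 20 mg/kg and none rose (2.07% and 2.26% of all genes), both of them chains of the interferon gamma receptor. IFNGR1 was at -0.79 (SE 0.10, adjusted p = 0.0493) and IFNGR2 at -0.42 (SE 0.05, adjusted p = 0.0445 by limma). IFNGR1 was at -1.01 by 211676_s_at and at 0.03 by 242903_at, the dimmest of its 3 probe sets. Leaving out any 1 array ended the IFNGR1 call, and leaving out any array but vehicle replicate 1 ended that of IFNGR2.

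The 27 tested STAT3 target genes outside the members hold the largest group of calls. This list was chosen with earlier results of these data known, so its shares are a description. At 20 mg/kg 8 fell, none rose and 19 did not pass, where 2.07% of all genes fell. The list's median log2 difference was -0.52, beside 0.00 over all genes, and the 20 mg/kg arrays lay below the vehicle arrays in 19 of the 27 and above in none, where 25.9% of all genes lay below and 24.5% above. At 4 mg/kg the median was -0.43 and limma called none, with 14 at an unadjusted p under 0.05 (17% of all genes). The 4 mg/kg arrays lay below the vehicle arrays in 17 of the 27 and above in 1. Of all 10271 genes tested, 1516 lay below and 2337 above. Between the doses the median was -0.05 with none called and 6 at an unadjusted p under 0.05 (13.4% of all genes). The 8 were CCND1 (-3.56), MYC (-2.56), CEBPD (-1.87), HP (-1.69), NAMPT (-1.54), CD274 (-0.79), TIMP1 (-0.34) and FOSL2 (-0.30), with adjusted p-values between 0.0174 and 0.0404 by limma. Cyclin D1, encoded by CCND1, and MYC drive the cell cycle and are also targets of MAPK signalling, C/EBP delta (CEBPD) and haptoglobin (HP) belong to the acute phase response, NAMPT makes NAD from nicotinamide, CD274 encodes the checkpoint ligand PD-L1, and TIMP1 inhibits metalloproteinases.

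HP read 11.16 and 10.86 with vehicle, 9.14 and 9.35 with 4 mg/kg, and 9.35 and 9.30 with 20 mg/kg. The lower dose lay as far down as the higher there, with a difference of -1.77 at 4 mg/kg that did not pass (adjusted p = 0.0892 by limma). TIMP1, at -0.37, and FOSL2, at -0.51, were also no higher at 4 than at 20 mg/kg. Neither passed at 4 mg/kg (adjusted p = 0.129 and 0.0728 by limma). CCND1, MYC, CEBPD, NAMPT and CD274 were lower at 20 than at 4 mg/kg. CEBPD read 12.80 and 13.28 with vehicle, 12.46 and 12.47 with 4 mg/kg, and 11.21 and 11.13 with 20 mg/kg. CCND1 read 11.78 and 11.97 with vehicle, 11.64 on both arrays with 4 mg/kg, and 7.97 and 8.65 with 20 mg/kg, so that the 4 mg/kg arrays lay just under vehicle. FOSL2 differed between probe sets: 225262_at fell, while 228188_at was at 0.51 and 218880_at at -1.10. CD274 was at -0.05 by its other tested probe set.

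Leaving out single arrays, an alternative chosen after seeing the data for this list, lowered the count of 8. With either 20 mg/kg array removed it was 0, and with either 4 mg/kg array removed it was 1. Removing vehicle replicate 2 gave 3, and removing vehicle replicate 1 gave 5. Leaving out a 4 mg/kg array leaves the difference itself as it was and changes the estimate of the spread. The 18S control stood at 573 and 637 at 20 mg/kg, at 489 and 374 at 4 mg/kg, and at 1713 and 4058 with vehicle. It was thus lower than vehicle at both doses, and its part in the falls at 20 mg/kg was not tested.

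**Figure D4:**
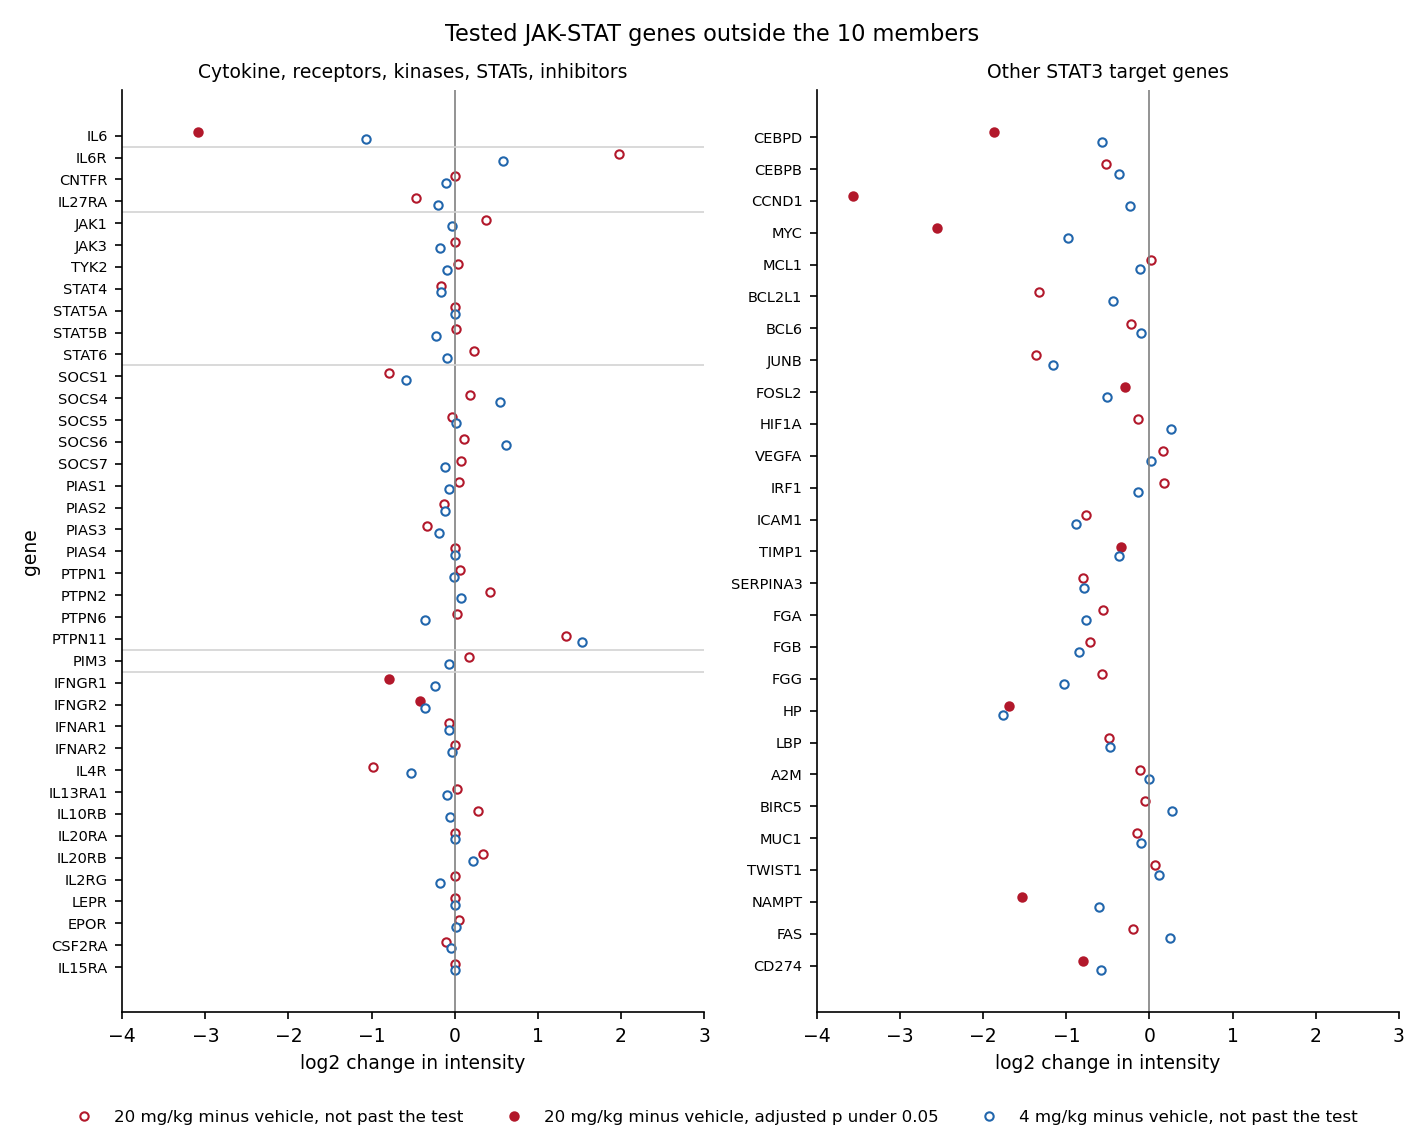
Log2 change in intensity (horizontal axis) of the 66 tested genes of the 7 other lists (rows; grey lines part the lists at left), with 20 mg/kg minus vehicle in red and 4 mg/kg minus vehicle in blue. Filled points passed an adjusted p of 0.05, open points did not. All 11 filled points lie left of 0 at 20 mg/kg, 8 of them among the STAT3 target genes at right.

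With each array centred on its median, limma called 4 members at 20 mg/kg, SOCS3, IL6ST, LIFR and NNMT, where 1958 genes were called in all, and after quantile normalization it called the same 4 among 1536 genes. These values at 20 mg/kg were -2.69 and -2.68 for SOCS3, 0.61 and 0.67 for IL6ST, 3.06 and 3.07 for LIFR, and -2.39 and -2.34 for NNMT. The differences were close to those reported, and more genes passed.

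**Figure D5:**
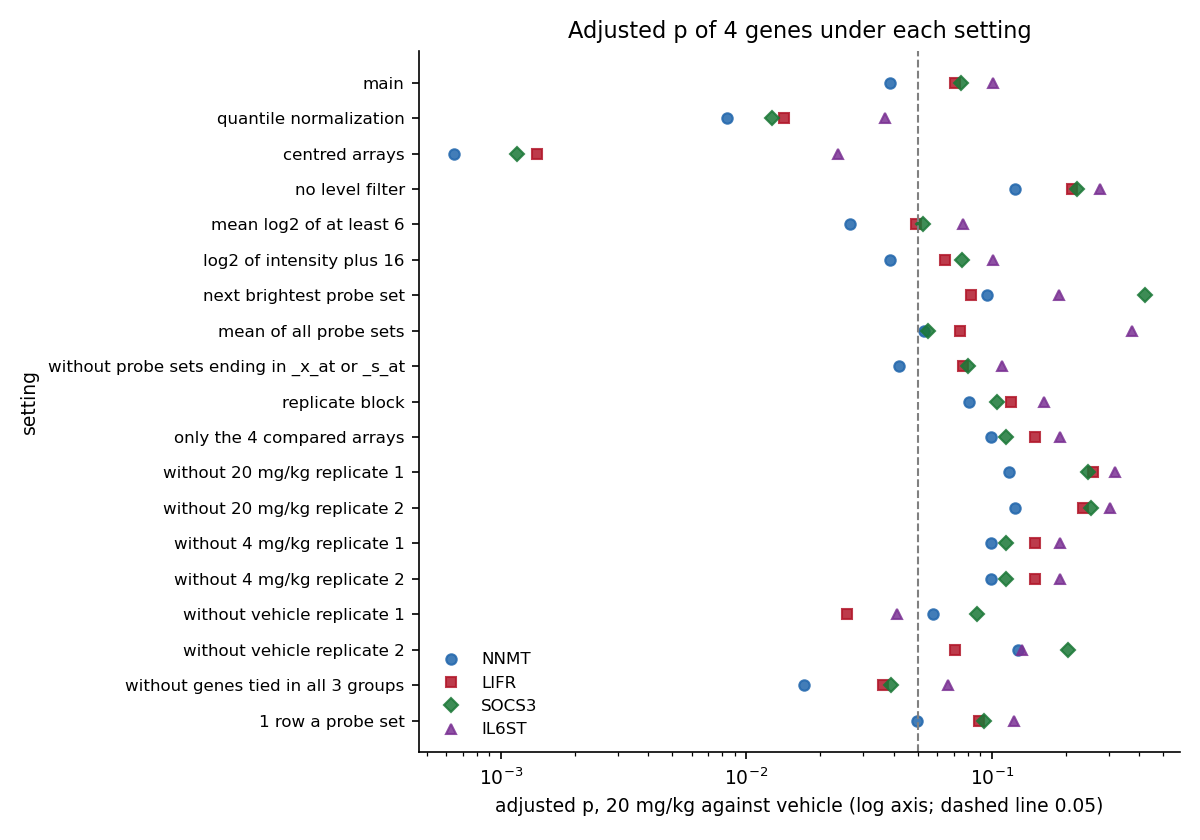
Adjusted p (horizontal log axis) at 20 mg/kg against vehicle for NNMT, LIFR, SOCS3 and IL6ST under the model as reported (main) and 18 alternatives (rows). The dashed line marks 0.05. NNMT lies left of it at 0.0386 as reported, and all 4 genes lie left of it with quantile normalization and with centred arrays.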

How the data were processed

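Tumour RNA on 6 arrays was analysed, 2 arrays in each of 3 groups. The deposited values are linear intensities that the submitters' processing notes tie to GCRMA and R 2.10.0. This method uses probe sequence to remove background, equalises distributions and fits each probe set by median polish, and whether the 6 arrays were normalized jointly is not stated. Every array has a floor at 4.578, and 39.5% to 40.2% of probe sets lay there, so differences of dim genes are understated. Raw scans and slides were not used here.

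From the deposited intensities log2 values were computed, with no pseudocount. Symbols were those of GEO's platform table and may be outdated: 41097 probe sets had 1 gene, 1801 several and 11777 none listed. A gene was represented by its brightest single-gene probe set, and genes or probe sets with a mean log2 under 4 were left out. limma 3.58.1 in R 4.3.3 (lmFit, eBayes) was fitted over all 6 arrays with 3 contrasts, two-sided. It had 3 residual and 0.723 prior degrees of freedom, and SEs are moderated and pooled over groups. The number of arrays limits the precision. The fit was tested on simulated data. The members and lists were chosen with earlier results of these data known. The members are named with every probe set, and of each list the genes past the test or, where none passed, the gene with the largest difference at 20 mg/kg. The values of KRT18 and of other lung adenocarcinoma markers, and further probe sets of the named list genes, were added after they were seen. Sequences and genome coordinates were not used here.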

Additional observations from a re-analysis of the deposited data

How the results depend on the processing

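The alternatives tried were quantile normalization, centring each array on its median, no level filter, a mean log2 of at least 6, adding 16 to the intensity, the next brightest probe set, the mean of all probe sets, leaving out probe sets ending in _x_at or _s_at, a replicate block, a fit of the 4 compared arrays, each array left out, leaving out genes tied in all 3 groups, and 1 row a probe set. For the list genes, and for single probe sets without a vehicle array, they were chosen after seeing the data. Of 468 values of member genes under these settings, 10 reversed, 15 newly passed, 11 no longer passed and 432 did none of these.

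Genes called at 20 mg/kg against vehicle were 445 as reported, 1536 with quantile normalization, 1958 with centred arrays, 57 with no filter, 207 with the next brightest probe set, 285 without _x_at and _s_at probe sets, 93 with the replicate block, 136 with 4 arrays and 819 without tied genes. For 4 mg/kg against vehicle they were 6, against 41 with quantile normalization (30 higher, 11 lower), 766 with centred arrays (517 higher, 249 lower), 3 with no filter, and 0 with a mean of at least 6, adding 16, the next brightest probe set, the mean of probe sets, the replicate block, 4 arrays, no tied genes and probe set rows. The reported 6 were 3 higher and 3 lower. Between the doses 38 were called (13 higher, 25 lower), against 333 with quantile normalization (151 higher, 182 lower), 494 with centred arrays (227 higher, 267 lower), 8 with no filter, 20 with the next brightest probe set, 0 with the replicate block and with 4 arrays, and 77 without tied genes. Members called at 20 mg/kg were 1, against 4 with quantile normalization and with centred arrays, 2 with a mean of at least 6, 3 without tied genes, and 0 with no filter, the next brightest probe set, the mean of probe sets, the replicate block and 4 arrays. Against 0 as reported at 4 mg/kg, 3 members were called with centred arrays. Probe sets called at 20 mg/kg were 522, against 2114 with quantile normalization, 40 with no filter, 2 with the replicate block and 968 without tied probe sets. For 4 mg/kg they were 1, against 3 with no filter and 0 with the replicate block and without tied probe sets. Between the doses they were 42, against 395 with quantile normalization, 4 with no filter, 0 with the replicate block and 76 without tied probe sets. The other STAT3 target genes lower numbered 8, against 15 with centred arrays, 0 with no filter, 4 with the next brightest probe set, 5 without _x_at and _s_at probe sets, and 1 with the replicate block and with 4 arrays.

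With 1 array left out, genes called ranged from 5 to 802 at 20 mg/kg, 0 to 475 at 4 mg/kg and 0 to 218 between the doses. Members ranged from 0 to 2 at 20 mg/kg and 0 to 1 at 4 mg/kg, and probe sets from 0 to 1334, 0 to 905 and 0 to 467. The other STAT3 targets ranged from 0 to 5. The group left with 1 array is assumed to vary like the others.

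Reversed log2 differences were as follows. With centred arrays SOCS2 was at -0.049 at 4 mg/kg, and SOCS2 at 0.017 and IFNGR2 at 0.014 between the doses. With the next brightest probe set PTPN11 was at -0.23 and FOSL2 at 0.51 at 20 mg/kg, and PTPN11 at -0.049 and NAMPT at 0.11 at 4 mg/kg. With the mean of probe sets SOCS2 was at -0.0083 and IL6ST at -0.018 at 4 mg/kg. Without _x_at and _s_at probe sets IFNGR1 was at 0.025 at 20 mg/kg and 0.21 at 4 mg/kg. With 1 array left out, values at 4 mg/kg ranged from -0.22 to 0.065 for STAT3, -0.19 to 0.0033 for OSMR, -0.17 to 0.13 for PIM1, -0.40 to 0.34 for JAK1 and -0.16 to 0.020 for PIM3, those at 20 mg/kg from -0.15 to 0.15 for PIM1, and those between the doses from -0.39 to 0.0026 for PTPN11, -0.046 to 0.070 for PIM1, -0.012 to 0.062 for TIMP1 and -0.024 to 0.19 for HP. The causes were not tested. The labels link same-numbered arrays by their number alone, and whether these arrays share more is not recorded. Their deviations correlated at 0.127 (20 with 4 mg/kg), -0.118 (20 mg/kg with vehicle) and 0.146 (4 mg/kg with vehicle). Transcripts at the floor have no measured fold.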
